A study of Mus musculus with 16 samples.

Results

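The 10 genes described here are widely used as markers of the A2, or ischemia-type, state of reactive astrocytes: *Clcf1*, *Tgm1*, *Ptx3*, *S100a10*, *Sphk1*, *Cd109*, *Emp1*, *Slc10a6*, *Tm4sf1* and *B3gnt5*. Their levels were taken by gene symbol from the deposited log2 table of normalised read counts (CPM, scaled to the size of the library). That table held 9 of the 10 genes among 16707 genes. The genes were selected by name and not by a measured value, although earlier results of these data were known when they were chosen. *Slc10a6*, which encodes a transporter of sulfated steroid hormones, was not in that table. Reads assigned to *Slc10a6* numbered 3 in 1 WT vehicle library, 2 in 1 LPS + IFNγ library of the knockout, and 0 in each of the other libraries, so no response was computed for it.

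Reactive astrocytes are astrocytes that change their gene expression after injury, infection or disease. A marker set named A1 was defined in mice given LPS and a set named A2 in mice with a blocked cerebral artery, while a shared set named pan-reactive rose after both. The A2 set holds cytokines, matrix proteins, enzymes and membrane proteins of unrelated families. LPS activates toll-like receptor signalling and IFNγ activates JAK-STAT signalling, and the combination is a common inflammatory stimulus for glia in culture. NLRX1 is a mitochondrial member of the NOD-like receptor family that restrains inflammatory signalling in several cell types.

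The study compared astrocytes of WT C57BL6J mice with astrocytes of mice that lack *Nlrx1* (*Nlrx1*-/-), asking how the loss of NLRX1 alters their response to inflammation. Cells from the brains of P6 pups, with the meninges removed, were selected with beads against the astrocyte surface antigen ACSA2 and grown for about 10 days in serum-free medium with heparin-binding EGF. Each of 4 litters per genotype gave 1 well with vehicle (water) and 1 well with LPS at 500 ng/mL and IFNγ at 10 ng/mL for 24 hours, so the 16 libraries formed 4 conditions of 4 litters. All wells shared the medium and the bead selection, both wells of a litter came from the same set of pups, and the labels name no tissue-specific driver for the knockout.

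Each library held between 27259420 and 43752903 assigned reads, with a median of 35554625. *Nlrx1* lay between 4.08 and 4.44 log2 CPM in the WT libraries and between 1.09 and 2.96 in the *Nlrx1*-/- libraries, so the genotypes did not overlap, although reads were still assigned to the gene in the knockout. The 9 astrocyte markers examined were all detected, and their summed level was 3870 to 6350 TPM (length-corrected and scaled to the library) in WT vehicle libraries and 2660 to 4600 in *Nlrx1*-/- vehicle libraries. It was 3050 to 4510 TPM and 2460 to 3490 TPM after LPS + IFNγ. Markers of other cells were present at lower summed levels, namely 163 to 898 TPM for oligodendrocytes, 275 to 694 TPM for oligodendrocyte precursors, 333 to 441 TPM for neurons, 47.8 to 217 TPM for ependymal cells, and at most 4.12 TPM for endothelial cells. A single gene gave most of 3 of these sums. It was *Olig2* for precursors (205 to 567 TPM), *Map2* for neurons (255 to 351 TPM) and *Foxj1* for ependymal cells (45.8 to 179 TPM). Of 9 microglial markers, 5 or 6 had a mean below 0.1 TPM in each condition, and their sum was 0.208 to 2.95 TPM. The library pair of *Nlrx1*-/- litter 3 stood apart in its fibroblast and pericyte markers, with a sum of 24.8 TPM in vehicle and 17.1 TPM after LPS + IFNγ, against 4.53 to 8.68 and 4.83 to 6.21 TPM in the other *Nlrx1*-/- litters. Results that change without that litter are given both ways. In bulk RNA, fewer cells of a type and less RNA per cell cannot be told apart.

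The A2-type genes responded to LPS + IFNγ in both directions. Of the 9 measured genes, 6, *Clcf1*, *Ptx3*, *S100a10*, *Cd109*, *Tgm1* and *B3gnt5*, rose in both genotypes. *Emp1* fell in both genotypes, *Tm4sf1* fell in WT astrocytes, and *Sphk1* passed the test in neither genotype. Calls rest on an adjusted p below 0.05 in the quasi-likelihood test of edgeR with litter as a term. In WT astrocytes the 6 genes that rose and 2 that fell stand against 23.7% and 20.2% of all 16066 tested genes called up and down, and the median log2 response of the 9 genes was 0.50 against -0.02 over all tested genes. In *Nlrx1*-/- astrocytes 6 rose and 1 fell, against 25.3% and 24.2% of all tested genes, with a median of 0.50 against -0.03.

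**Figure D1:**
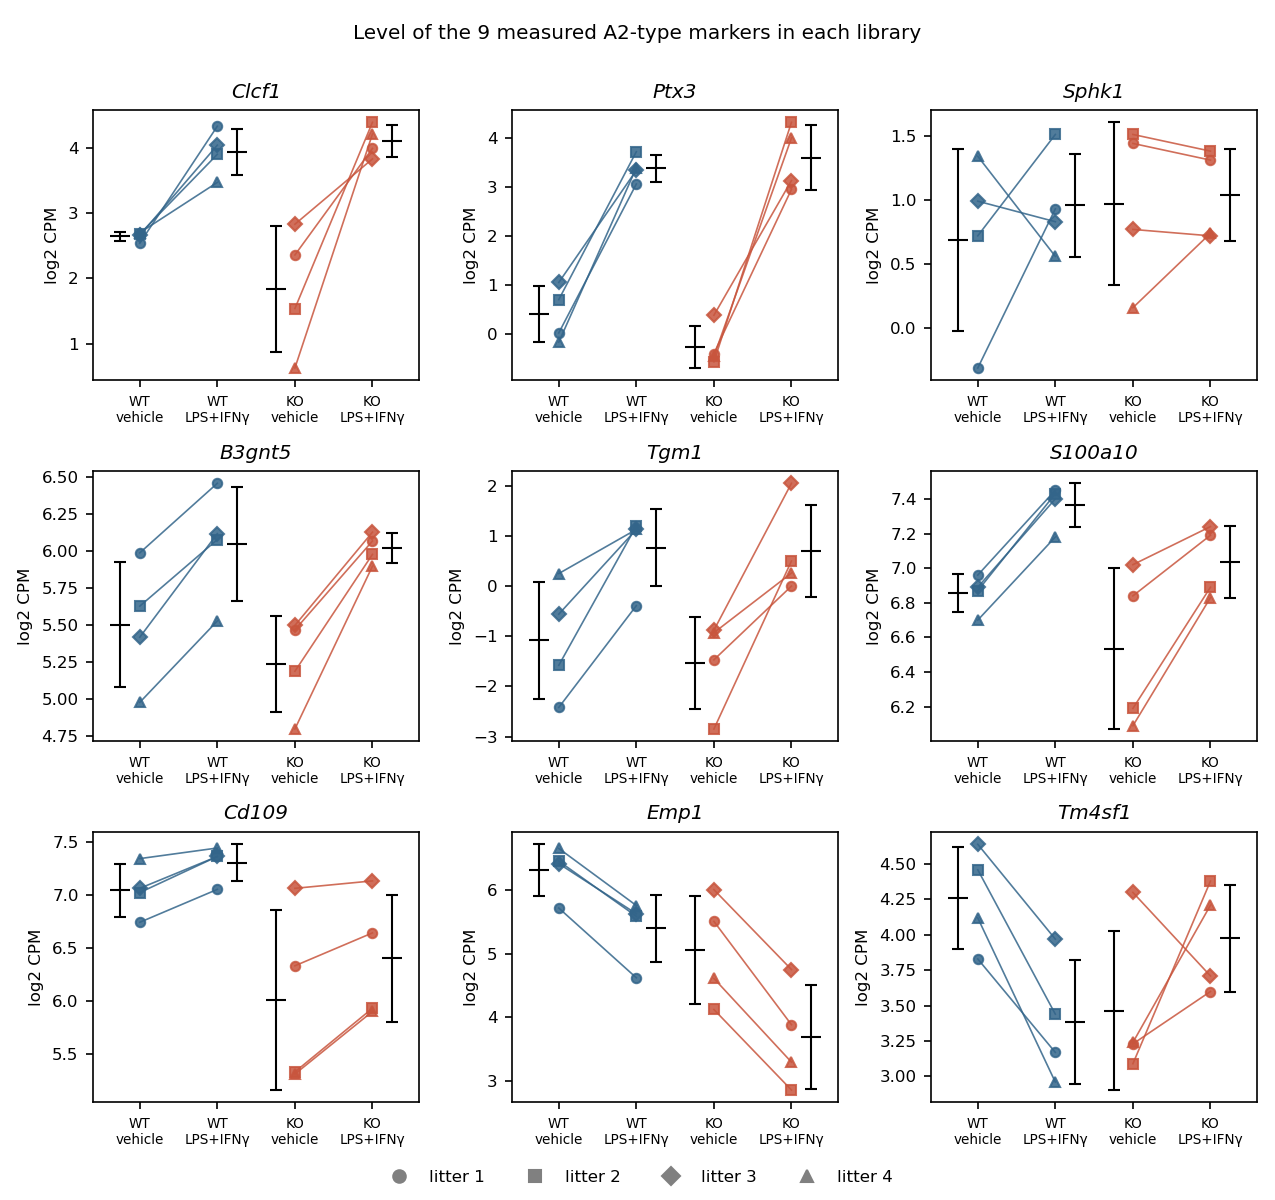
Each panel plots the deposited log2 CPM of 1 gene in the 16 libraries, with lines joining the vehicle and LPS + IFNγ wells of a litter, marker shapes for litters, and bars for the mean ± SD of the 4 litters. *Ptx3* moved from at most 1.05 in vehicle to at least 2.95 after LPS + IFNγ, every line for *Emp1* falls, and the *Tm4sf1* lines fall in the 4 WT litters but rise in 3 of the 4 knockout litters. The vertical axes differ between panels.

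The promoter sequences of the genes that rose most are shown beside those of *Emp1* and *Tm4sf1*. *Emp1* fell in both genotypes and *Tm4sf1* in WT astrocytes only. RefSeq promoters (GRCm38.p6) were at hand for 7 of the 10 genes, and *Clcf1*, *S100a10* and *Cd109* had no entry. The 250 bases before each listed start were searched on both strands for 4 well-known motifs, and capitals mark the matches. The AP-1 letters were TGANTCA. The letters of the gamma-interferon activated site, called GAS, were TTCNNNGAA. The NF-κB letters were 3 G, then any 3 bases, then TTCC. The TATA box was searched as TATAAA. Of all 32851 promoters of this length, 6.75% held the AP-1 letters, 7.02% the GAS letters, 4.65% the NF-κB letters and 12.4% the TATA letters. Counted per gene over all its starts, the shares of 27025 genes were 7.82%, 8.13%, 5.31% and 14.3%. Where a gene has several starts the window with matches is printed. The other listed windows of *Tgm1* and *Emp1* held no match.
Ptx3, chr3:66219637-66219886, plus strand: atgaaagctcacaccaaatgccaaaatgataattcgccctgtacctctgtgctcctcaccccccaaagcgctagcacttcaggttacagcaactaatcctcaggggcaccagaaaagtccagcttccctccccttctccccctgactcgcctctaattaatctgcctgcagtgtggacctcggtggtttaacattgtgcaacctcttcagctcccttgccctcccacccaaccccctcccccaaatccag
Tgm1, chr14:55713493-55713742, minus strand: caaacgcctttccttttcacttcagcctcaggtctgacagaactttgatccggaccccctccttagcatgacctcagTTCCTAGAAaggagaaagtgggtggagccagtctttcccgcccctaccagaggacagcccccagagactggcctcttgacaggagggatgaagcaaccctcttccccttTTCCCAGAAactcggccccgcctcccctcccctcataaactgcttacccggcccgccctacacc
Emp1, chr6:135362681-135362930, plus strand: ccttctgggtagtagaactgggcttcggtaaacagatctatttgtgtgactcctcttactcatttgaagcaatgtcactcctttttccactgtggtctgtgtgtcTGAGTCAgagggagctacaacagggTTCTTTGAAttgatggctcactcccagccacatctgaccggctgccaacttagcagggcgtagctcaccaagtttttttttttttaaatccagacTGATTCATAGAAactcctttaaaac
Tm4sf1, chr3:57301989-57302238, minus strand: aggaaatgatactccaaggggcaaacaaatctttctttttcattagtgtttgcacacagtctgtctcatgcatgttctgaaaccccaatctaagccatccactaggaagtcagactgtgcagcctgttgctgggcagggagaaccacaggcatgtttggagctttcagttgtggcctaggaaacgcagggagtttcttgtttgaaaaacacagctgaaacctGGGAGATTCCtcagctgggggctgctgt

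None of the 4 motifs was found in the *Ptx3* window, although *Ptx3* had the largest response of the measured genes. The *Tgm1* window held 2 GAS matches. The *Emp1* window held 2 AP-1 and 2 GAS matches, of which the AP-1 match at 25 to 19 bases before the start overlaps the GAS match at 22 to 14 bases. In *Tm4sf1* the NF-κB letters lie 28 to 19 bases before the start. Among the windows not printed, those of *Sphk1* held a match to each motif, and those of *B3gnt5* and *Slc10a6* held none. A match describes letters and was not tested as a binding site.

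*Ptx3* (chr3:66127331-66133226, GRCm39, plus strand) encodes pentraxin 3, a secreted pattern recognition protein that binds complement components and crosslinks hyaluronan matrix, and it had 23 to 558 reads per library. In WT vehicle wells its levels in litters 1 to 4 were 0.02, 0.70, 1.05 and -0.17 log2 CPM, and after LPS + IFNγ they were 3.06, 3.72, 3.34 and 3.39. In *Nlrx1*-/- vehicle wells they were -0.40, -0.57, 0.38 and -0.46, and after LPS + IFNγ 2.95, 4.32, 3.13 and 4.00. Stimulated and vehicle wells did not overlap in either genotype. The rise was 7.92-fold in WT astrocytes (log2 2.99 ± 0.327 (SE), n = 4 litters, edgeR adjusted p = 4.04e-05) and 15.1-fold in *Nlrx1*-/- astrocytes (3.92 ± 0.347, adjusted p = 7.54e-06). Litters 2 and 4 of the knockout had the largest responses, 4.89 and 4.46, from the lowest vehicle levels, and the difference between the responses, 0.93 ± 0.465, did not pass the test (adjusted p = 0.368).

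The matrix genes that act with pentraxin 3 moved in different directions. In WT astrocytes 2 of 6 tested partners rose and 1 fell, against 23.7% and 20.2% of all tested genes. In *Nlrx1*-/- astrocytes 3 rose and 3 fell, against 25.3% and 24.2%. *Has2*, a hyaluronan synthase, rose by a log2 fold change of 2.52 ± 0.259 in WT and 3.34 ± 0.275 in *Nlrx1*-/- astrocytes. *Cd44*, the hyaluronan receptor, rose by 1.43 ± 0.0712 and 1.51 ± 0.0712. *Itih5*, which encodes an inter-alpha-trypsin inhibitor heavy chain, had responses of -1.11 ± 0.121 and -1.56 ± 0.125, a decrease that passed the test in each genotype.

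*Clcf1* (chr19:4264292-4273546, GRCm39, plus strand) encodes cardiotrophin-like cytokine factor 1, a ligand of the IL-6 family that signals through the receptor for ciliary neurotrophic factor. Its WT vehicle levels, 2.54, 2.68, 2.66 and 2.70 log2 CPM in litters 1 to 4, lay close together, and rose to 4.33, 3.90, 4.04 and 3.47. *Nlrx1*-/- vehicle levels were 2.36, 1.54, 2.83 and 0.63, and stimulated levels were 3.99, 4.39, 3.83 and 4.21. The vehicle levels were thus more spread in the knockout, with litters 2 and 4 lowest, whereas the stimulated levels of the genotypes overlapped. The rise was 2.44-fold in WT (log2 1.29 ± 0.336, n = 4, edgeR adjusted p = 0.0101) and 4.62-fold in *Nlrx1*-/- astrocytes (2.21 ± 0.357, adjusted p = 0.000488), and the difference of 0.92 ± 0.484 did not pass (adjusted p = 0.39). In *Nlrx1*-/- vehicle litter 4, all 64 *Clcf1* reads were assigned to a RefSeq transcript that had 0 reads in every other library. Without that litter the *Nlrx1*-/- response was 1.79 ± 0.305 and still passed (edgeR adjusted p = 0.00118).

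Genes of the CLCF1 signalling route were examined together. Of 6 partners, 4 rose and 1 fell in WT astrocytes, against 23.7% and 20.2% of all tested genes. In *Nlrx1*-/- astrocytes 5 rose and 1 fell, against 25.3% and 24.2%. The receptor subunit *Cntfr*, which binds the ligand, fell, with responses of -0.66 ± 0.111 in WT and -0.65 ± 0.112 in *Nlrx1*-/- astrocytes, while the ligand rose. The signal-transducing receptor *Lifr* rose by 0.57 ± 0.075 and 0.42 ± 0.075 and the kinase *Jak1* by 0.30 ± 0.0451 and 0.32 ± 0.0451. *Stat3*, the main transcription factor of this route, rose by 1.11 ± 0.0632 and 1.11 ± 0.0633. The feedback inhibitor *Socs3* rose by 0.47 ± 0.152 and 1.18 ± 0.153. The shared receptor *Il6st* passed the test in *Nlrx1*-/- astrocytes (0.42 ± 0.0836) and had a value of -0.01 ± 0.0833 in WT astrocytes. The difference between the genotypes did not pass for *Il6st* (0.43 ± 0.118) or *Socs3* (0.71 ± 0.215), each with an edgeR adjusted p of 0.223.

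*Tgm1* (chr14:55937466-55951383, GRCm39, minus strand) encodes transglutaminase 1, an enzyme that crosslinks proteins in the cell envelope of keratinocytes. It had the lowest level of the genes that rose, with 3 to 150 reads per library. WT litters 1 to 4 had -2.42, -1.58, -0.56 and 0.25 log2 CPM in vehicle and -0.39, 1.20, 1.13 and 1.13 after LPS + IFNγ. The knockout litters had -1.47, -2.85, -0.88 and -0.93 in vehicle and 0.00, 0.50, 2.05 and 0.26 after LPS + IFNγ. Vehicle and stimulated levels overlapped in WT but not in *Nlrx1*-/- astrocytes, and every litter of both genotypes rose. The rise was 3.79-fold in WT (log2 1.92 ± 0.502, n = 4, edgeR adjusted p = 0.0101) and 5.18-fold in *Nlrx1*-/- astrocytes (2.37 ± 0.516, adjusted p = 0.00316). Without WT litter 2 the WT call was lost (adjusted p = 0.0533), as it was without the litter term (adjusted p = 0.0556).

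*B3gnt5* (chr16:19578948-19591507, GRCm39, plus strand) encodes the glycosyltransferase that starts lacto-series glycolipids. Its levels in WT litters 1 to 4 were 5.99, 5.63, 5.42 and 4.98 log2 CPM in vehicle and 6.46, 6.08, 6.12 and 5.53 after LPS + IFNγ. The knockout litters stood at 5.47, 5.19, 5.50 and 4.80, and 6.07, 5.98, 6.13 and 5.90. The conditions overlapped in WT but not in *Nlrx1*-/- astrocytes. The log2 responses were 0.53 ± 0.0898 in WT (edgeR adjusted p = 0.000769) and 0.75 ± 0.0902 in *Nlrx1*-/- astrocytes (adjusted p = 6.09e-05). Without the litter term the WT call was lost (adjusted p = 0.0671).

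*Sphk1* (chr11:116421751-116427501, GRCm39, plus strand) encodes sphingosine kinase 1, which makes the lipid mediator sphingosine 1-phosphate. Its vehicle levels were -0.31, 0.72, 0.99 and 1.34 log2 CPM in WT litters 1 to 4, beside stimulated levels of 0.93, 1.51, 0.83 and 0.56. The knockout litters had 1.44, 1.51, 0.77 and 0.16 in vehicle and 1.31, 1.38, 0.72 and 0.74 after LPS + IFNγ. The conditions overlapped in both genotypes, with 2 of 4 WT litters and 1 of 4 *Nlrx1*-/- litters higher after stimulation. The log2 responses of 0.25 ± 0.343 in WT and 0.05 ± 0.331 in *Nlrx1*-/- astrocytes had edgeR adjusted p values of 0.582 and 0.911, at a depth of 27 to 102 reads per library.

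The synthesis, breakdown, export and sensing of sphingosine 1-phosphate were covered by 7 tested genes. In WT astrocytes 2 rose and 0 fell, against 23.7% and 20.2% of all tested genes. In *Nlrx1*-/- astrocytes 2 rose and 2 fell, against 25.3% and 24.2%. The lyase *Sgpl1* rose by a log2 fold change of 0.20 ± 0.0604 in WT and 0.21 ± 0.0604 in *Nlrx1*-/- astrocytes. The other kinase, *Sphk2*, rose in WT (0.22 ± 0.0714) and had 0.10 ± 0.0713 in *Nlrx1*-/- astrocytes, while the phosphatase *Sgpp1* had -0.06 ± 0.0645 and rose in *Nlrx1*-/- astrocytes (0.17 ± 0.0641). The exporter *Spns2* (-0.89 ± 0.184) and the receptor *S1pr2* (-0.35 ± 0.115) fell in *Nlrx1*-/- astrocytes. The receptors *S1pr1* and *S1pr3* passed in neither genotype.

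*S100a10* (chr3:93462213-93474510, GRCm39, plus strand) encodes p11, the partner of annexin A2 that brings plasminogen activation to the cell surface. WT litters 1 to 4 had 6.96, 6.87, 6.89 and 6.70 log2 CPM in vehicle and 7.45, 7.43, 7.40 and 7.18 after LPS + IFNγ. *Nlrx1*-/- litters had 6.84, 6.19, 7.02 and 6.09 in vehicle and 7.19, 6.89, 7.24 and 6.83 after stimulation. The WT conditions did not overlap and those of the knockout did. The log2 responses were close, 0.50 ± 0.0782 in WT (edgeR adjusted p = 0.00049) and 0.49 ± 0.0786 in *Nlrx1*-/- astrocytes (adjusted p = 0.00048), with a difference of -0.01 ± 0.111. Across litters the responses ran from 0.48 to 0.55 in WT and from 0.22 to 0.74 in *Nlrx1*-/- litters.

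*Cd109* (chr9:78522735-78623558, GRCm39, plus strand) encodes a membrane-anchored protein of the alpha-2-macroglobulin family that restrains TGF-β signalling. Its levels in WT litters 1 to 4 were 6.74, 7.02, 7.06 and 7.34 log2 CPM in vehicle and 7.05, 7.36, 7.36 and 7.44 after LPS + IFNγ. *Nlrx1*-/- litters had 6.33, 5.33, 7.06 and 5.31 in vehicle and 6.64, 5.93, 7.13 and 5.90 after stimulation. Litters differed more than treatments did, above all in the knockout, and the conditions overlapped in both genotypes. The log2 response was 0.25 ± 0.0796 in WT (edgeR adjusted p = 0.0264) and 0.37 ± 0.0809 in *Nlrx1*-/- astrocytes (adjusted p = 0.00303), with every litter higher after stimulation on the log2 CPM scale. The WT call was lost without WT litter 1, 2 or 3 (adjusted p = 0.0824, 0.103 and 0.0905), and neither call held without the litter term (adjusted p = 0.616 and 0.527).

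Of 6 tested partners of S100A10 and CD109, 3 rose and 1 fell in WT astrocytes, against 23.7% and 20.2% of all tested genes. In *Nlrx1*-/- astrocytes 3 rose and 2 fell, against 25.3% and 24.2%. *Plat*, tissue plasminogen activator, rose by a log2 fold change of 0.54 ± 0.0479 in WT and 0.49 ± 0.0478 in *Nlrx1*-/- astrocytes. *Anxa2*, the direct partner of p11, rose by 0.32 ± 0.0987 and 0.37 ± 0.0998. *Ahnak*, a large scaffold that binds the annexin A2 and p11 complex, had responses of -0.65 ± 0.175 and -0.80 ± 0.184 and passed the test as lower in each genotype.

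*Emp1* (chr6:135339543-135360171, GRCm39, plus strand) encodes epithelial membrane protein 1, a small tetraspan protein of the PMP22 family, and 86.3% to 100% of its TPM in each library came from 1 RefSeq transcript. In WT litters 1 to 4 its levels were 5.72, 6.46, 6.42 and 6.66 log2 CPM in vehicle and 4.62, 5.59, 5.63 and 5.76 after LPS + IFNγ. Knockout litters had 5.51, 4.12, 6.01 and 4.61 in vehicle and 3.88, 2.85, 4.75 and 3.29 after stimulation. Every litter of both genotypes fell, while the levels overlapped between conditions in each genotype, and the fall per litter was larger in every knockout litter (-1.63 to -1.26) than in any WT litter (-1.10 to -0.78). The response was -0.92 ± 0.0786 in WT, a level 1.89-fold lower (edgeR adjusted p = 6.57e-06), and -1.39 ± 0.0833 in *Nlrx1*-/- astrocytes, 2.62-fold lower (adjusted p = 4.09e-07). Without the litter term the WT call was lost (adjusted p = 0.109).

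*Tm4sf1* (chr3:57193032-57209430, GRCm39, minus strand) encodes a tetraspan-like membrane protein of the L6 family found on endothelial and tumour cells. WT litters 1 to 4 had 3.83, 4.46, 4.64 and 4.12 log2 CPM in vehicle and 3.17, 3.44, 3.97 and 2.96 after LPS + IFNγ. *Nlrx1*-/- litters had 3.23, 3.09, 4.30 and 3.24 in vehicle and 3.60, 4.38, 3.71 and 4.21 after stimulation. The WT litters all fell, by log2 responses of -0.66, -1.02, -0.67 and -1.16. In the knockout, litters 1, 2 and 4 were higher after stimulation, at 0.37, 1.29 and 0.97, and litter 3 was lower at -0.58. The WT response of -0.89 ± 0.241 passed the test (edgeR adjusted p = 0.0122) and the *Nlrx1*-/- response of 0.50 ± 0.244 did not (adjusted p = 0.115).

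Single litters decided several *Tm4sf1* calls. The WT call was lost without WT litter 2 (adjusted p = 0.0524) or WT litter 4 (adjusted p = 0.058). Without *Nlrx1*-/- litter 3, the litter with the highest fibroblast and pericyte marker sum, the *Nlrx1*-/- response was 0.86 ± 0.173 and passed (edgeR adjusted p = 0.00238). The part of that marker sum in the result was not tested. The 6 endothelial markers summed to 2.38 to 4.12 TPM in WT vehicle, 0.598 to 1.38 TPM in stimulated WT wells, and in the knockout 0.84 to 3.07 TPM with vehicle and 1.35 to 1.95 TPM with LPS + IFNγ. Of them, 2 had a mean below 0.1 TPM in WT vehicle and 3 in each other condition, and their part in the *Tm4sf1* values was not tested.

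**Figure D2:**
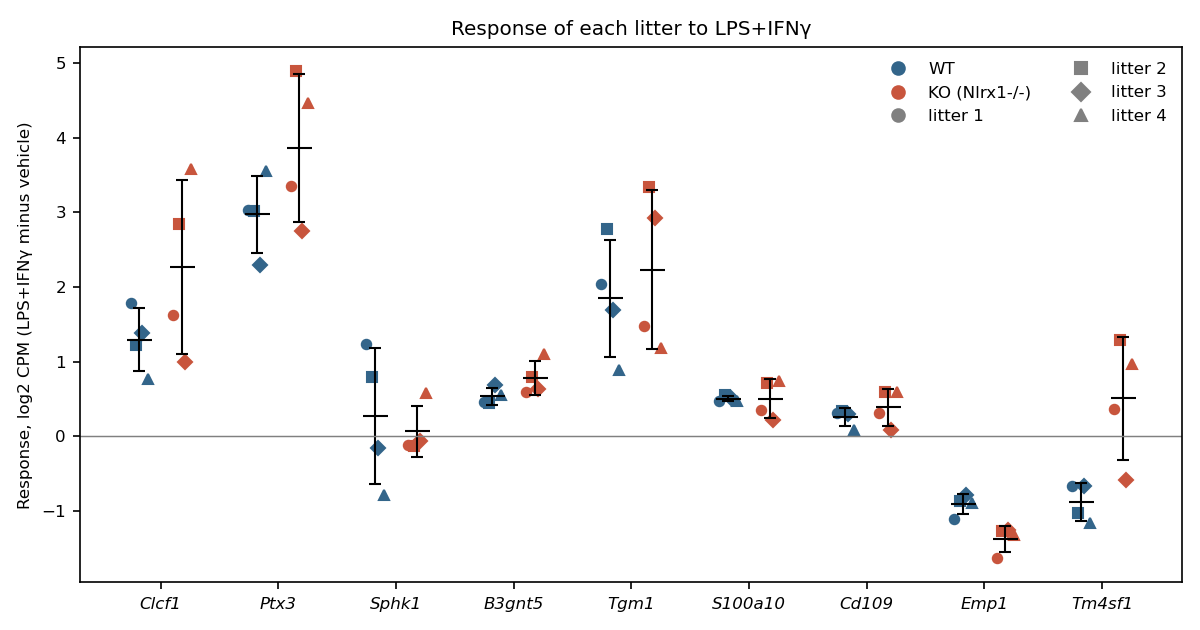
For each of the 9 genes the difference in log2 CPM between the LPS + IFNγ and vehicle wells is plotted per litter, WT in blue and *Nlrx1*-/- in red, with the mean ± SD of 4 litters and a line at 0. *Emp1* and *Tm4sf1* are the genes whose WT and knockout litters do not overlap, with *Emp1* lower and *Tm4sf1* higher in the knockout.

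Whether the responses differed between the genotypes was tested as an interaction. *Tm4sf1* and *Emp1* were the 2 members whose litter responses did not overlap between WT and *Nlrx1*-/- astrocytes, against 8.31% of the 16707 genes in the table. The interaction was 1.39 ± 0.343 for *Tm4sf1* and -0.47 ± 0.114 for *Emp1*, each with an adjusted p of 0.217, the lowest value reached by any gene and shared by 211 genes. Accordingly edgeR called 0 of the 9 members and 0% of all tested genes, while 2469 genes and 2 members had an unadjusted p below 0.05. DESeq2 called 310 genes, among them *Tm4sf1* (1.40, adjusted p = 0.00825) and *Emp1* (-0.46, adjusted p = 0.0282), and limma called 0. Without *Nlrx1*-/- litter 3 the *Tm4sf1* interaction was 1.75 ± 0.228 and passed in edgeR (adjusted p = 0.0292), and over all left-out litters its adjusted p ran from 0.0292 to 0.464. How many of all genes passed without that litter was not counted. The difference in the *Tm4sf1* response was therefore called by some fits and not by others.

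In vehicle wells 8 of the 9 genes had a fitted level below WT in *Nlrx1*-/- astrocytes, with a median difference of -0.71 against 0.0 over all genes, and 0 of them passed the test. The largest differences were -1.12 ± 0.417 for *Emp1* (edgeR adjusted p = 0.174), -0.87 ± 0.342 for *Cd109* (0.189), -0.75 ± 0.285 for *Tm4sf1* (0.178) and -0.75 ± 0.362 for *Ptx3* (0.262). Across all genes edgeR called 0%, with 3152 genes and 3 members at an unadjusted p below 0.05, DESeq2 called 781 genes and limma 1. Levels of the genotypes overlapped for each of the 9 genes, against 9.45% of all genes without overlap. *Nlrx1* itself, at -1.7 ± 0.243, was not called either (edgeR adjusted p = 0.0538), although no gene had a lower adjusted p in this comparison. The vehicle values of 8 of the 9 genes thus lay lower in the knockout without passing the test, which does not show equal levels. Lower vehicle values were not limited to this set. The pan-reactive markers had a median difference of -0.56, with 4 of 13 genes above WT. The A1-type markers had a median of 0.1, with 6 of 11 genes above WT.

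The wide spread in the knockout followed the litters. In vehicle, *Nlrx1*-/- litters 2 and 4 held the 2 lowest values for 6 of 9 genes (*Clcf1*, *Ptx3*, *S100a10*, *Cd109*, *Emp1* and *B3gnt5*), as for 22.1% of all genes in the table. The astrocyte marker sum was also lowest in these litters, at 2660 and 3050 TPM against 3780 and 4600 TPM in litters 1 and 3. *Gfap*, the astrocyte intermediate filament, stood at 124 and 249 TPM against 569 and 1080 TPM. *Aqp4*, *Slc1a2*, *S100b*, *Atp1b2* and *Gja1* were likewise lowest in litters 2 and 4. Other astrocyte markers overlapped between these litters, namely *Slc1a3* (1200 and 1060 against 1170 and 1280 TPM), *Aldh1l1* (522 and 564 against 578 and 506 TPM) and *Sox9*. After LPS + IFNγ these litters were lowest for 4 genes (27.5% of all genes) and highest for 3, *Clcf1*, *Ptx3* and *Tm4sf1* (27.3% of all genes). Litter 3 had the highest vehicle level in the knockout of every measured gene except *Sphk1*. Without litter 3 the vehicle difference passed in edgeR for *Cd109* (-1.32, adjusted p = 0.0134), *Emp1* (-1.50, adjusted p = 0.0253) and *Tm4sf1* (-1.12, adjusted p = 0.0221). The share of all genes called without litter 3 was not counted, so these calls are not shown to be particular to the set. The part of the astrocyte, fibroblast and pericyte markers in these differences was not tested.

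After LPS + IFNγ, *Emp1* was the 1 member called between the genotypes in the 4-condition fit, with a level 3.04-fold lower in *Nlrx1*-/- astrocytes (log2 -1.60 ± 0.429, n = 4 litters per genotype, edgeR adjusted p = 0.0474). This 1 of 9 stands against 2.38% of all genes called lower and 2.65% called higher in the knockout, and the median difference of the 9 genes was 0.05 against -0.01. The *Emp1* levels of the genotypes still overlapped, since *Nlrx1*-/- litter 3 (4.75) lay above WT litter 1 (4.62). Over all genes, 13.3% did not overlap in this condition. The 4-condition fit has no litter term, although the wells of a litter are not independent, and with only the 8 LPS + IFNγ libraries the *Emp1* difference was -1.60 ± 0.399 and not called (adjusted p = 0.0746). The call was also lost without WT litter 2, 3 or 4 (adjusted p = 0.139, 0.14 and 0.15) and without *Nlrx1*-/- litter 1, 2 or 4 (0.0784, 0.0897 and 0.152). Without *Nlrx1*-/- litter 3 the *Emp1* difference was -2.09 (adjusted p = 0.00423) and *Cd109* also passed (-1.13, adjusted p = 0.00855). The share of all genes called in that fit was not counted. With all litters *Cd109* had -0.83 ± 0.341 (adjusted p = 0.128) and *Tm4sf1* had 0.57 ± 0.287 (adjusted p = 0.207).

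**Figure D3:**
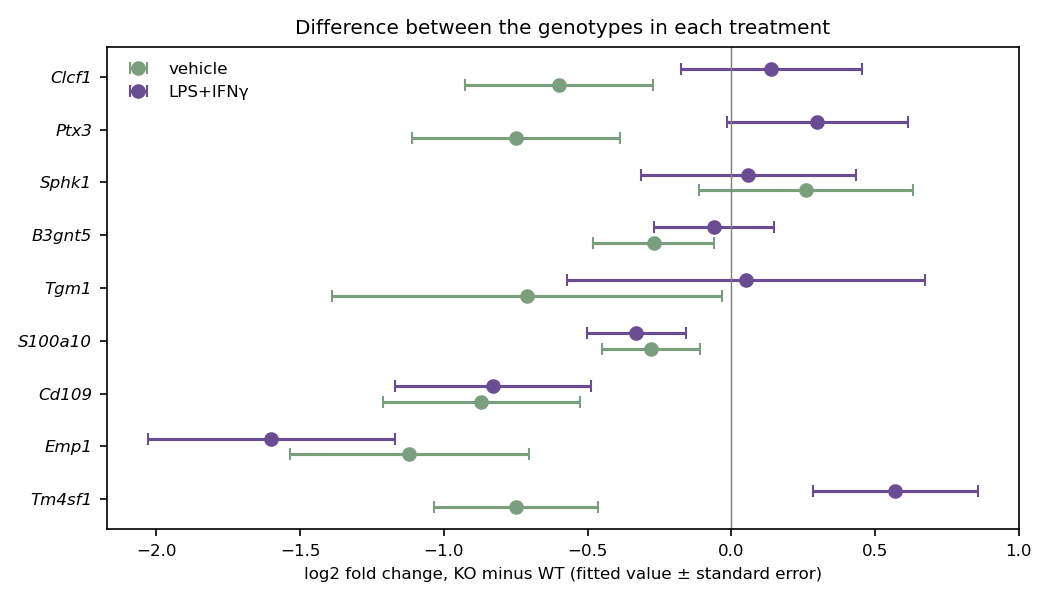
Points give the fitted log2 fold change of *Nlrx1*-/- minus WT for each of the 9 genes, in vehicle (green) and after LPS + IFNγ (purple), and bars give the standard error. In vehicle 8 points lie below 0, and *Emp1* after LPS + IFNγ, at -1.60, is the difference that passed the test.

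On a per-length scale, which allows levels of different genes to be compared, *S100a10* had the highest TPM of the set in every condition. Its means were 637 ± 54.3 TPM (SD, n = 4) in WT vehicle, 777 ± 65.6 in WT after LPS + IFNγ, and in the knockout 508 ± 168 with vehicle and 616 ± 108 with LPS + IFNγ. Its range did not overlap that of the next gene in any condition. In WT vehicle *Emp1* (70.8 ± 17.3 TPM), *Cd109* (50.2 ± 8.17), *Tm4sf1* (32.6 ± 7.8) and *B3gnt5* (25.7 ± 7.66) followed, and each overlapped its neighbour in that order. *Clcf1* (7.56 ± 0.299 TPM) stood apart below them, and *Ptx3* (1.65 ± 0.677), *Sphk1* (1.58 ± 0.671) and *Tgm1* (0.418 ± 0.342) formed an overlapping group at the bottom.

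Stimulation reordered the middle of this list. In WT wells with LPS + IFNγ, *Cd109* held rank 2 at 51.3 ± 5.08 TPM, followed by *Emp1* (32.7 ± 9.57), *B3gnt5* (31.9 ± 8.5), *Clcf1* (16.4 ± 4.16), *Tm4sf1* (15.3 ± 4.73) and *Ptx3* (11 ± 1.8), with overlap between each pair of neighbours after *Cd109*. *Sphk1* (1.56 ± 0.441) and *Tgm1* (1.19 ± 0.471) lay below them and overlapped each other. In *Nlrx1*-/- vehicle the order was *Emp1* (31.6 ± 18.0), *Cd109* (26.6 ± 16.2), *B3gnt5* (20.5 ± 4.59) and *Tm4sf1* (18.7 ± 8.55), all overlapping, then *Clcf1* (4.84 ± 2.93), *Sphk1* (1.84 ± 0.743) and *Ptx3* (0.949 ± 0.347), which overlapped in turn, and below them *Tgm1* (0.25 ± 0.14). In *Nlrx1*-/- wells with LPS + IFNγ *Emp1* held rank 7, at 10.8 ± 6.8 TPM, behind *B3gnt5* (30.3 ± 2.9), *Cd109* (29.0 ± 13.2), *Tm4sf1* (22.5 ± 5.18), *Clcf1* (17.8 ± 2.44) and *Ptx3* (13.4 ± 5.61), which overlapped from each to the next and as far as *Emp1*. *Sphk1* (1.62 ± 0.395) and *Tgm1* (1.25 ± 1.02) came after *Emp1* and overlapped each other.

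The TPM scale moved the median response of all genes by -0.22 log2 units in WT and -0.18 in *Nlrx1*-/- astrocytes. On it, the mean WT responses were 0.29 for *S100a10*, 0.32 for *B3gnt5*, 0.04 for *Cd109* and -1.13 for *Emp1*, against 0.51, 0.54, 0.26 and -0.91 on the log2 CPM scale. The mean *Sphk1* response in *Nlrx1*-/- litters changed sign, from 0.07 to -0.11. The mean directions of the other members held on both scales. Single litters could differ, since *Cd109* went from 60.7 to 56.6 TPM in WT litter 4 and from 48.4 to 46.2 TPM in *Nlrx1*-/- litter 3.

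The other reactive marker sets give the scale of the stimulus. Of 11 tested A1-type markers 7 rose and 2 fell in WT astrocytes, against 23.7% and 20.2% of all tested genes. In *Nlrx1*-/- astrocytes 7 rose and 0 fell, against 25.3% and 24.2%. The median log2 responses were 5.15 in WT and 4.92 in *Nlrx1*-/- astrocytes. *Iigp1*, an interferon-induced GTPase that went from a mean of 0.0783 to 1010 TPM in WT (14.02 and 12.72), *Gbp2*, a guanylate-binding protein (8.40 and 9.10), and *Psmb8*, an immunoproteasome subunit (7.92 and 7.25), had the largest WT responses. *Fbln5*, an elastic fibre protein, fell in WT astrocytes (-1.27 ± 0.446), as did the glycosyltransferase *Ggta1* (-1.02 ± 0.239), and *Srgn*, a proteoglycan core protein, was not called (0.02 ± 0.702). The median of the A2-type genes was 0.50 in each genotype.

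Of 13 pan-reactive markers 6 rose and 2 fell in WT astrocytes, against 23.7% and 20.2% of all tested genes. In *Nlrx1*-/- astrocytes 7 rose and 1 fell, against 25.3% and 24.2%. The medians were 0.66 in WT and 1.51 in *Nlrx1*-/- astrocytes. *Cxcl10*, a chemokine (10.71 and 9.37), *Lcn2*, an iron-carrier binding protein (9.38 and 12.32), and *Steap4*, a metalloreductase (3.20 and 4.99), rose most in WT. At the other end, *Aspg* fell in both genotypes, from a mean of 1.16 to 0.0117 TPM in WT, the small heat shock gene *Hspb1* fell in WT (-1.43 ± 0.359) and had -0.88 ± 0.364 in *Nlrx1*-/- astrocytes, and *Gfap* was not called (-0.44 ± 0.209 and 0.16 ± 0.214). The counts of genes in each list describe these libraries, and the lists were not tested against each other.

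**Figure D4:**
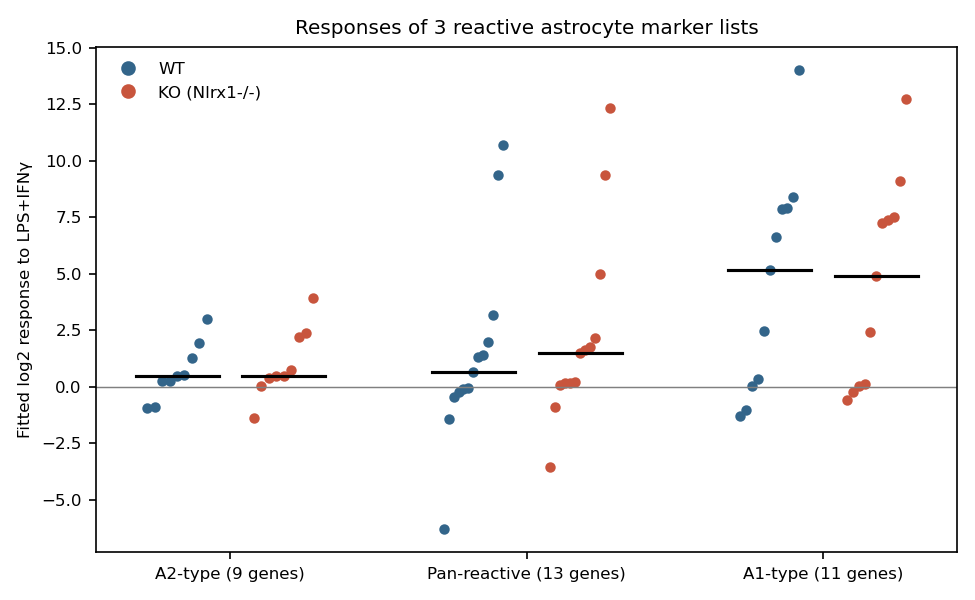
Each point is the fitted log2 response of 1 gene to LPS + IFNγ, grouped by marker list and genotype, and the black bars are medians. The A2-type genes lie between -1.39 and 3.92, with medians of 0.50, and the A1-type medians are 5.15 in WT and 4.92 in *Nlrx1*-/- astrocytes.

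Relatives of the A2-type genes were also examined, and of 31 listed paralogs 18 were tested. In WT astrocytes 8 rose and 1 fell, against 23.7% and 20.2% of all tested genes. In *Nlrx1*-/- astrocytes 6 rose and 3 fell, against 25.3% and 24.2%. *Tgm2*, the broadly expressed transglutaminase, rose by 3.45 ± 0.245 in WT and 4.56 ± 0.263 in *Nlrx1*-/- astrocytes, from 3.17 to 30.2 TPM in WT, where *Tgm1* went from 0.418 to 1.19 TPM. *Nptx1*, a neuronal pentraxin, rose by 2.29 ± 0.223 and 1.74 ± 0.221, and *B3gnt7* rose in WT (2.22 ± 0.531) and had 1.25 ± 0.523 in *Nlrx1*-/- astrocytes. *Pmp22*, a relative of *Emp1*, had responses of -0.43 ± 0.0946 and -0.81 ± 0.0958 and was called lower in both. The glycosyltransferases *B3gnt4* (-0.71 ± 0.368 in WT) and *B3gnt9* (-0.57 ± 0.385 in WT) were not called.

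The genes with the profiles most like the 3 strongest responders were found by the root-mean-square difference of centred log2 CPM over the 16 libraries. Nearest to *Ptx3* were *Cmpk2* (0.375), *Samd9l* (0.383) and *Parp12* (0.404). Nearest to *Clcf1* were *Sgms2* (0.217), *Spsb1* (0.351) and *Pde3a* (0.395). *Tgm1*, with few reads, had no neighbour as close, the nearest being *Tifa* (0.626), *Mill2* (0.63) and *Icosl* (0.636). These distances describe shared libraries and carry no test.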

How the data were processed

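RNA was measured in 16 libraries, grouped by the sample labels into 4 conditions of 4 litters, with 0 libraries unmapped. The authors aligned reads to GRCm39 RefSeq transcripts with Salmon 1.7.0 and deposited an expected count and a TPM per transcript. The deposited CPM are a TMM-adjusted signal from limma 3.58.1, per gene after a count filter, and the deposited log2 values are the log2 of that CPM with a small prior. Strand was not used.

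Expected counts were summed per gene over 106440 of 129698 transcripts, which held 96.7% to 97.3% of reads, and rounded. Genes were tested with edgeR 4.0.16 in R 4.3.3 (quasi-likelihood, TMM, length offsets, filterByExpr at 10 counts, Benjamini-Hochberg adjustment, threshold 0.05). Responses and their difference used litter within genotype as a term. Genotypes were compared in a 4-condition fit, because each litter has 1 genotype. Both wells of a litter came from the same mice, and their deviations from the condition means correlated in each of 8 litters (r = 0.181 to 0.54). Litters with the same number in the 2 genotypes share only that number.

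Levels are deposited log2 CPM, given as mean ± SD, and fold changes carry their standard error. Precision at low counts is limited by reads, which are given for low genes. The members and gene lists were chosen with earlier results of these data known, and list counts are descriptions. All measured A2 members are named, all CLCF1 and sphingosine 1-phosphate partners could be named, and of other lists only the 3 largest and 3 smallest WT responses. A few listed genes are not reported here and were left out of the list counts and marker sums. Other settings used DESeq2 1.42.0, limma, other scalings, filters, thresholds and blocks, and left out each litter. The fits were tested on simulated counts without a litter effect, so that test does not cover the dependence between wells of a litter. Libraries of a condition correlated at up to 0.98639, and none was a copy of another. Gene positions are from GENCODE M39 and plots from Python 3.11.15 with numpy 2.4.6, pandas 2.3.3 and matplotlib 3.10.9, and R read its input with data.table (version 1.17.8).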

Additional observations from a re-analysis of the deposited data

Results flagged for a closer look

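Gaps of a single litter from the other 3 were examined in 54 groups of 4 litters with Dixon's ratio, the gap divided by the range, against its critical value for 4 samples. Chance flags about 1 in 20 groups, and 5 stood out. *Tgm1* in WT litter 1 after LPS + IFNγ lay below the other WT litters with a ratio of 0.959. *Emp1* in the same library was also the lowest, with a ratio of 0.847. *Tm4sf1* in *Nlrx1*-/- litter 3 was the highest of the *Nlrx1*-/- vehicle levels, with a ratio of 0.883, and the fibroblast and pericyte marker sum was highest in that library too. The *Sphk1* response of *Nlrx1*-/- litter 4 stood above the other litters with a ratio of 0.893, and the *Emp1* response of *Nlrx1*-/- litter 1 below them with a ratio of 0.83. The causes were not tested.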

How the results depend on the processing

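Of 756 member values under the alternatives, 703 kept their direction and side of the threshold, 23 lost a call, 8 gained one, 18 changed sign and 4 moved by more than the spread. Without the replicate block for litters, WT genes called up went from 6 to 3 (*Clcf1*, *Ptx3* and *S100a10*) and down from 2 to 1 (*Tm4sf1*). At an adjusted p below 0.01 they were 3 (*B3gnt5*, *Ptx3* and *S100a10*) and 1 (*Emp1*), and *Emp1* after LPS + IFNγ was no longer called (0). Leaving out a litter gave 4 to 6 WT genes up and 1 to 2 down, 6 to 7 *Nlrx1*-/- genes up and 1 down, 0 to 1 interaction up, 0 to 3 vehicle differences down and 0 to 2 down after LPS + IFNγ. Shares over all genes were not counted for the fits with a litter left out. DESeq2 called 1 interaction up and 1 down, where edgeR called 0. With only the 8 libraries of LPS + IFNγ, the *Emp1* genotype difference was not called (0 genes, adjusted p = 0.0746). A replicate block by litter number across genotypes, which share only a number, changed no other count of called members.

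The values that changed sign belong to differences that had not passed the test. *Sphk1* had a *Nlrx1*-/- response of -0.01 without the replicate block and -0.11 on the TPM scale, and left-out litters gave -0.06 to 0.62 in WT and -0.12 to 0.12 in *Nlrx1*-/- astrocytes, -0.56 to 0.11 for the interaction and -0.07 to 0.28 for the genotypes after LPS + IFNγ. The *S100a10* interaction was 0.0029 in DESeq2, 0.0028 with RLE scaling in edgeR and -0.09 to 0.08 over left-out litters. The *Tgm1* difference after LPS + IFNγ was -0.07 in limma, -0.05 with the replicate block and -0.68 to 0.28 over left-out litters, and that of *B3gnt5* was -0.20 to 0.08. Depth limits *Tgm1*, *Sphk1* and *Slc10a6* most. The causes were not tested.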
